A study of Mus musculus with 9 samples.

Results

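*Slco1a4* and *Itm2a* are genes used as markers of brain endothelium, the cells that line brain capillaries and form the blood-brain barrier. The rows with these symbols, 2 of the 689 genes in the RNA-seq table, were followed through 9 mouse brain libraries. The genes were chosen by their symbols with their values in these libraries already known, and the table itself had been selected on a model of age and microglial state fitted to the same kind of values. Every contrast among the groups was therefore used in the choice, and the levels of both genes are given as a description, without a printed p-value. Whether a limma fit called them at its threshold is stated below, and nothing is read from those calls.

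Endothelial cells of the brain are joined by tight junctions, so that most solutes enter the tissue only through carriers and receptors in the capillary membrane. *Slco1a4* encodes OATP1A4, an organic anion transporter of that membrane that carries bile acids, steroid conjugates and many drugs. *Itm2a* encodes integral membrane protein 2A, a membrane protein with a BRICHOS domain that is enriched in brain endothelium and is also known from cartilage and activated T cells.

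The animals were male C57BL/6J mice, with 3 libraries per group and 1 frozen hemibrain per library, so that p-values measure the spread between these mice. Young controls (P07, P08 and P09) were 5 months old by the sample labels, came from JAX, and ate control diet for 6 weeks. Aged controls (P10, P11 and P12) were 24 months old, came from NIA, and ate control diet for 6 weeks. Aged-repopulated mice (P01, P02 and P03) were also 24 months old and from NIA. They received PLX5622 for 2 weeks, which blocks the colony-stimulating factor 1 receptor that microglia need to survive, and then control diet for 4 weeks while new microglia filled the brain. PLX5622 was given to no young mouse of this comparison, and age cannot be told apart from supplier. The values are RPKM as computed by the authors, read counts divided by transcript length and by the mapped reads of the library, and can be set side by side between genes. Because RNA of whole tissue was sequenced, fewer endothelial cells and less RNA per cell cannot be told apart. The usual defining endothelial markers *Cldn5*, *Pecam1*, *Cdh5*, *Flt1* and *Kdr* are not among the 689 genes, so the endothelial label could not be checked on them. Of 46 endothelial genes listed, 5 are in the table.

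The 2 genes lie apart in the genome and are built differently. *Slco1a4* (ENSMUSG00000030237.14) spans chromosome 6 from 141805440 to 141856199 on the minus strand of GRCm38, the assembly also called mm10, and its longest coding transcript has 17 exons and 3823 nucleotides. *Itm2a* (ENSMUSG00000031239.5) is on chromosome X from 107397099 to 107403376, also on the minus strand, with 6 exons and 1744 nucleotides. No other annotated gene overlaps either of them. *Slco1a4* belongs to a cluster of similar transporters, and 1.61% of its stretches of 50 bases also occur in transcripts of 5 other genes, *Slco1a5* first. *Itm2a* shares none, and its family members *Itm2b* and *Itm2c* are not in the table.

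The promoters of the 2 genes are shown side by side as a description, and their part in the levels was not tested. Each sequence is the 250 bases before the start annotated by RefSeq on GRCm38.p6, written 5′ to 3′ along the gene, chr6:141856221-141856470 for *Slco1a4* and chrX:107403361-107403610 for *Itm2a*, both on the minus strand. Capitals mark matches, on either strand, to any of the short motifs searched.
Slco1a4: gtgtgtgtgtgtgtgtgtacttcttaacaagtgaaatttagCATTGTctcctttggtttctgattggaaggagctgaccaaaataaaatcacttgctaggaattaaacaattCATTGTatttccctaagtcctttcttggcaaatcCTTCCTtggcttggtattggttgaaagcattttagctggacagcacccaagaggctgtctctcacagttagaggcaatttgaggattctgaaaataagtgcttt
Itm2a: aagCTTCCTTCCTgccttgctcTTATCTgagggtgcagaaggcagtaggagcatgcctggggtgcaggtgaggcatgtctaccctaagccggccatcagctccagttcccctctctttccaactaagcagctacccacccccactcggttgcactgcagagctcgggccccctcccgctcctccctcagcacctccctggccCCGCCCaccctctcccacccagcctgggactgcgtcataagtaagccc

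The *Slco1a4* promoter was 39.2% G and C with 0 CpG, and the *Itm2a* promoter was 62.8% G and C with 6 CpG. Among 32851 RefSeq promoters of the same length, 10.3% had a lower G and C content than *Slco1a4* and 78.3% a lower one than *Itm2a*. The letters AGGAAG, the core bound by ETS factors of endothelium, occurred in both promoters and in 29.5% of all. ACAATG, a SOX motif, occurred in *Slco1a4* only of the pair (10.7% of all promoters), in 2 places. AGATAA, bound by GATA factors (9.99% of all promoters), and GGGCGG, the letters of a GC box (32.7%), occurred in *Itm2a* only. The letters searched for TCF/LEF factors, CTTTGAT (3.21% of all promoters), for FOX factors, TGTTTAC (3.17%), and for AP-1, TGACTCA (4.46%), were in neither window. Nor was the core promoter box TATAAA (12.4%), the E-box CACGTG (6.02%), or the nuclear receptor motif AGGTCA (14.0%). The 2 ETS matches of *Itm2a* overlap each other. A match is a description of the letters, and no binding was measured here.

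The levels of *Slco1a4* overlapped between young and aged controls and were 24.8% lower in mean after repopulation. Its RPKM was 15.6 in P07, 15.7 in P08 and 16.9 in P09 of the young controls. In the aged controls it was 16.2 in P10, 14.9 in P11 and 16.1 in P12. In the aged-repopulated brains it was 12.9 in P01, 11.6 in P02 and 11.0 in P03. The young and aged control values overlapped, and all 3 aged-repopulated values lay below every control value of either age. The mean was 16.1 ± 0.743 RPKM (SD, n = 3) for the young group, 15.7 ± 0.715 (SD, n = 3) for the aged controls and 11.8 ± 0.962 (SD, n = 3) after repopulation. It exceeded the mean of 39.0% of the genes of the table in young controls and of 13.1% after repopulation.

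*Itm2a* had a different order. It was highest in young controls, and its levels in aged controls and aged-repopulated brains overlapped. Its RPKM was 31.6 in P07, 31.5 in P08 and 29.6 in P09 of the young controls. In the aged controls it was 26.0 in P10, 21.9 in P11 and 19.0 in P12. In the aged-repopulated brains it was 27.3 in P01, 23.8 in P02 and 21.7 in P03. All 6 aged values, treated or not, lay below all 3 young values. The mean was 30.9 ± 1.16 RPKM (SD, n = 3) for the young group, 22.3 ± 3.53 (SD, n = 3) for the aged controls and 24.2 ± 2.82 (SD, n = 3) after repopulation. Per transcript length *Itm2a* was the more abundant of the pair in every library.

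**Figure D1:**
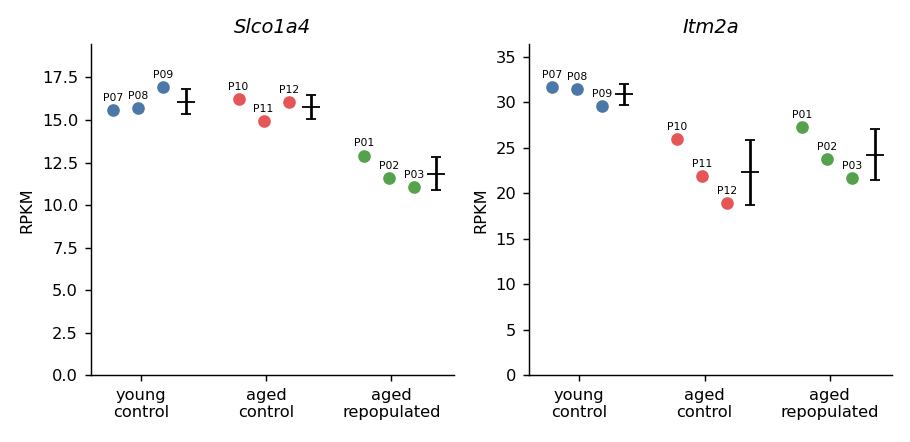
RPKM (vertical axes, from 0) of *Slco1a4* and *Itm2a* in each library, coloured by group, with the group mean and SD as black bars. *Slco1a4* drops in the 3 aged-repopulated libraries, which lie between 11.0 and 12.9, whereas *Itm2a* is lower in all 6 aged libraries than in the young controls.

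The genes also differed in how far mice of a group spread. The coefficient of variation of *Itm2a* was 3.74% for the young group, 15.9% for the aged controls and 11.6% after repopulation, against medians over the table of 2.79%, 4.18% and 3.41%. In aged controls 97.5% of the genes of the table varied less than *Itm2a*. *Slco1a4* varied by 4.62%, 4.54% and 8.12% in the same groups. The standard error of a group difference was accordingly larger for *Itm2a* (0.11) than for *Slco1a4* (0.06) on the log2(RPKM + 1) scale, on which all differences below are given and which slightly understates changes of low genes.

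With age, *Itm2a* was lower and the values of *Slco1a4* overlapped. Between aged and young controls the log2 difference of *Slco1a4* was -0.03 with a standard error of 0.06 and a 95% interval from -0.16 to 0.10, so that a modest difference either way remains possible. *Itm2a* was 27.9% lower in mean RPKM, a log2 difference of -0.46 with a standard error of 0.11 (interval from -0.70 to -0.23), and the decrease was second in size among the 689 genes. Over the whole table the median difference was 0.10, toward higher values in aged controls, and relative to it *Slco1a4* lay at -0.12 and *Itm2a* at -0.56. In the limma fit across the 689 genes with Benjamini-Hochberg adjustment, *Itm2a* was called lower at an adjusted p under 0.05 and *Slco1a4* was not, where 16.5% of the table was called lower. The aged and young values did not overlap, in the lower direction, for *Itm2a* and for 19.4% of the table. All 3 contrasts were used in choosing the genes, so nothing is read from the calls or the overlaps of the pair, in this contrast or in those with aged-repopulated brains. For the same reason the ranks and 95% intervals of the pair describe size and spread, and are no evidence of a difference.

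With repopulation it was *Slco1a4* whose values lay apart. *Slco1a4* was 24.8% lower in aged-repopulated than in aged control brains, a log2 difference of -0.38 with a standard error of 0.06 (interval from -0.51 to -0.25), seventh from the lowest of the 689 genes. The difference of *Itm2a* was 0.12 with a standard error of 0.11, and its interval from -0.12 to 0.36 spans a small decrease as well as an increase. *Slco1a4* was among the 5.81% of the table that limma called lower and the 22.2% whose groups did not overlap in this direction, neither of which is evidence for a gene chosen on this contrast. Its log2 difference was -0.34 when P03 of the aged-repopulated group was left out and -0.37 when P12 of the aged controls was, and either omission ended the call. It was -0.44 without P01. For *Itm2a* the difference was 0.02 when P12 of the aged controls was left out and 0.23 when P10 was, so its size rests on single libraries.

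Against young controls, aged-repopulated brains were lower in both genes. The log2 difference was -0.41 for *Slco1a4* with a standard error of 0.06 and -0.34 for *Itm2a* with a standard error of 0.11, corresponding to mean RPKM lower by 26.3% and 21.5%. These were the sixth and the eighth from the lowest of the table. In this contrast 0.726% of the table was called lower by limma, including *Slco1a4* but not *Itm2a*, from which again nothing is read. *Itm2a* was called in 3 of 17 alternatives, those with libraries centred on the median, with only the 2 groups compared and without P10. Neither gene's aged-repopulated values overlapped the young ones, as was the case in this direction for 11.2% of the table. The 3 contrasts share libraries in pairs, and are not independent of each other.

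**Figure D2:**
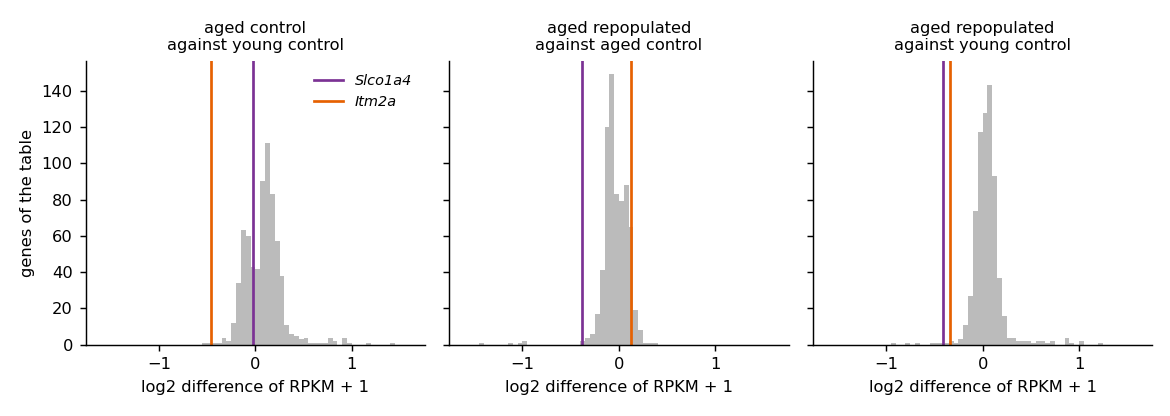
Distribution of the log2 difference of RPKM + 1 over the 689 genes of the table (grey, number of genes on the vertical axis) in the 3 contrasts, with *Slco1a4* and *Itm2a* as coloured lines. *Itm2a* lies at -0.46 in the contrast of age and *Slco1a4* at -0.38 in that of repopulation, each in the lower tail, and both lie there against young controls.

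A scaling factor common to all genes of a library cancels in the ratio of the 2 genes within it. A bias that depends on transcript length does not cancel. After a correction for transcript length, the log2 difference between aged and young controls was -0.56 for *Itm2a* and 0.01 for *Slco1a4*. *Itm2a* RPKM divided by *Slco1a4* RPKM was 2.03, 2.00 and 1.75 in the young controls P07, P08 and P09. It was 1.60, 1.47 and 1.18 in the aged controls P10, P11 and P12, and 2.11, 2.05 and 1.96 in the aged-repopulated libraries P01, P02 and P03. The aged control ratios lay below all others, and the ratios of young control and aged-repopulated brains overlapped. The mean ratio was 1.93 ± 0.157 (SD, n = 3) for the young group, 1.42 ± 0.215 (SD, n = 3) for the aged controls and 2.04 ± 0.0748 (SD, n = 3) after repopulation. In the aged-repopulated brains, where the ratio overlapped that of young controls, both of its genes were lower than in the young.

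**Figure D3:**
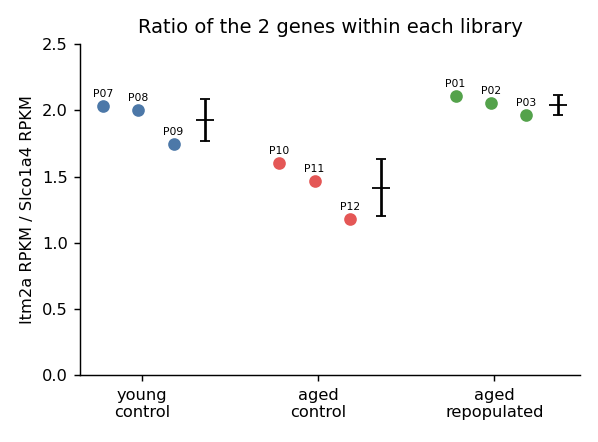
*Itm2a* RPKM divided by *Slco1a4* RPKM (vertical axis, from 0) in each library, with group mean and SD in black. The aged controls lie between 1.18 and 1.60, below the other 6 libraries.

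The remaining genes of the vascular lists showed that the other listed endothelial markers did not share a single pattern. The endothelial list was drawn up by hand, and genes of the table outside it were not counted. Besides *Slco1a4* and *Itm2a*, the endothelial list is represented by *Tfrc*, *Ly6c1* and *Ly6a*. *Tfrc* encodes the transferrin receptor, which takes up iron at the blood-brain barrier and also in neurons. *Ly6c1* and *Ly6a* encode small surface proteins anchored by a lipid tail. The list of vascular basement membrane genes is represented by *Sparc*, a secreted collagen-binding glycoprotein (1 of 16 genes), the list of barrier carriers and receptors by *Slco1a4* and *Tfrc* (2 of 26), and the lists of 17 endothelial junction genes, 19 Wnt and norrin signalling genes and 16 pericyte and smooth muscle genes by 0 genes each.

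*Tfrc* followed *Itm2a*. Its RPKM was 29.1, 26.1 and 28.3 in the young controls P07, P08 and P09, then 23.8, 21.8 and 19.7 in the aged controls P10, P11 and P12, and 23.3, 21.2 and 21.6 in the aged-repopulated libraries P01, P02 and P03. Aged control values lay below every young value for 19.4% of the table, and aged-repopulated values did so for 11.2%. For *Tfrc*, all aged values lay below all young ones. The log2 difference was -0.34 with age (standard error 0.07, limma adjusted p = 0.0078), 0.02 with repopulation (limma adjusted p = 0.827, interval from -0.13 to 0.17) and -0.32 between aged-repopulated and young control brains (limma adjusted p = 0.021). The last of these calls was lost in 5 of 17 alternative fits, among them those without P03, P07, P08 or P09, where the adjusted p was between 0.052 and 0.086. The authors' model had selected the table on these same animals. The adjusted p-values given for *Tfrc*, *Ly6a*, *Ly6c1* and *Sparc*, and the lack of overlap of *Tfrc*, are therefore not independent evidence.

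*Ly6a* went the other way with age, and the values of *Ly6c1* were also higher in aged than in young controls. *Ly6a* was 9.79, 9.32 and 10.7 RPKM in the young controls P07, P08 and P09 and 15.4, 15.2 and 15.8 in the aged controls P10, P11 and P12. In the aged-repopulated libraries P01, P02 and P03 it was 15.3, 11.9 and 10.5. It rose with age by a log2 difference of 0.59 with a standard error of 0.11 (limma adjusted p = 0.0066). *Ly6c1* averaged 9.01 ± 0.363 RPKM (SD, n = 3) for the young group, 11.9 ± 0.708 (SD, n = 3) for the aged controls and 9.51 ± 1.63 (SD, n = 3) after repopulation. Every gene of the table has at least 1 library above the authors' minimum of 10 RPKM, and *Ly6c1* has 0 of 3 in the young controls, 3 of 3 in the aged controls and 1 of 3 after repopulation. Among the 9 libraries only aged ones pass the minimum for this gene, so its log2 difference with age of 0.37 is a description, from which nothing is read. After the correction for transcript length that difference was 0.17 and was no longer called (limma adjusted p = 0.109). With age 46.3% of the table was called higher. With repopulation the log2 difference of *Ly6a* was -0.29 (limma adjusted p = 0.087). It was -0.43 and called lower without the aged-repopulated library P01 (limma adjusted p = 0.0081), and -0.18 without P03 (limma adjusted p = 0.182). The difference of *Ly6c1* with repopulation was -0.31, and was -0.43 without P01 and -0.21 without P02. As P01 is the only aged-repopulated library in which *Ly6c1* passes the minimum, these values too are a description. Single libraries decide the size of both differences. Reads of these genes are uncertain, because 32.8% of the 50-base stretches of *Ly6c1* and 19.0% of those of *Ly6a* also occur in other genes, mostly of the same family.

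*Sparc*, with means of 175 to 200 RPKM the most abundant of the 6 vascular genes, was not called in any contrast. Its log2 difference was 0.18 with age (limma adjusted p = 0.169) and -0.12 with repopulation (limma adjusted p = 0.397). Both values rest on single libraries and on the scaling. Without P11, the highest aged control, they were 0.06 and -0.0018, and without P01 the repopulation difference was -0.22. With quantile normalization the age difference was -0.02.

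Counted over the 5 endothelial genes in the table, 2 were called higher and 2 lower with age, where 46.3% of the table was called higher and 16.5% lower, with a median log2 difference of -0.03 against 0.10 for the table. The higher calls include that of *Ly6c1*, which is subject to the minimum and was lost with the correction for transcript length, leaving 3 calls in all. With repopulation 1 was called lower, *Slco1a4* itself, where 5.81% of the table was, and the median was -0.29 against -0.05. Against young controls 2 were called lower, *Slco1a4* and *Tfrc*, where 0.726% of the table was, with a median of -0.32 against 0.04. These counts and medians include *Slco1a4* and *Itm2a*, which were chosen on the same values. Over the other 3 genes the median was 0.37 with age, -0.29 with repopulation and 0.06 against young controls, and of these genes *Tfrc* alone was called lower against young controls. The authors' model had selected all 5 genes on these animals, so neither set of values is independent evidence of a direction.

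**Figure D4:**
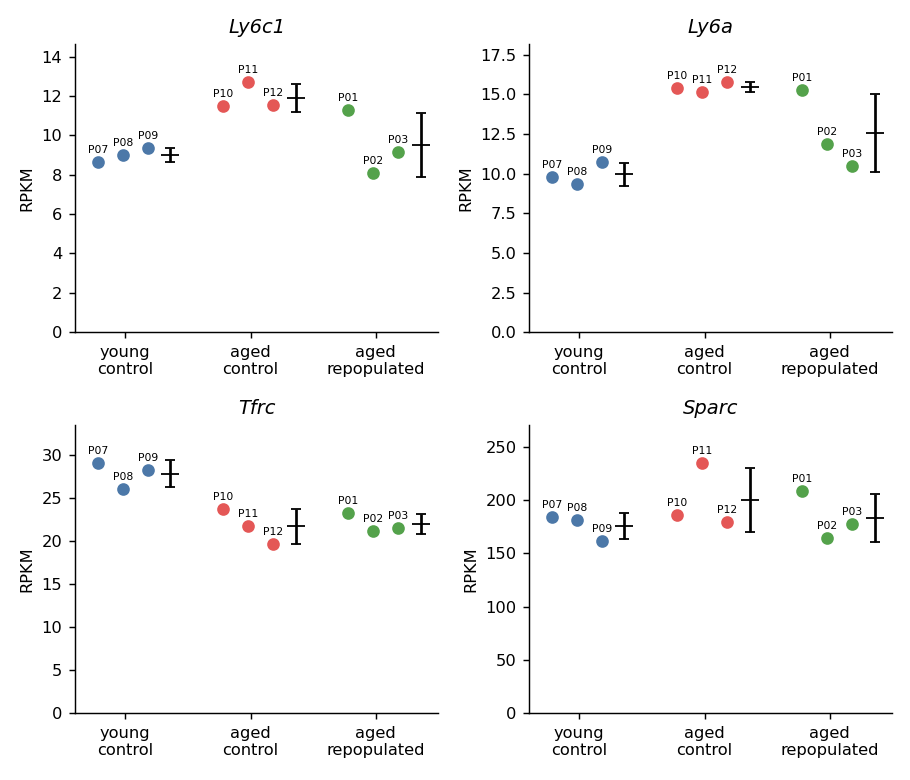
RPKM (vertical axes, from 0) of *Ly6c1*, *Ly6a*, *Tfrc* and *Sparc* in each library, coloured by group, with the group mean and SD in black. *Ly6a* rises from a mean of 9.95 to 15.5 between young and aged controls whereas *Tfrc* falls from 27.8 to 21.8, and P01 is the highest aged-repopulated library in all 4 panels.

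Markers of other cells moved as well. The 8 genes of the microglial list of 15 that are in the table summed to between 155 and 161 RPKM for the young group, between 229 and 272 for the aged controls and between 219 and 318 after repopulation, without overlap between the young and the aged libraries. With age 7 of the 8 were called higher by limma, as was 46.3% of the table, with a median log2 difference of 0.78, and with repopulation the median was 0.04. The 7 include *Laptm5*, which passes the authors' minimum in 0 of 3 young controls, so that its call is subject to that minimum as well. The aged-repopulated library P01 had the highest value of its group in all 8 of these genes and in all 6 vascular genes, *Slco1a4* and *Itm2a* included, where it was highest for 37.6% of the table, a library singled out after its values were seen. Among aged controls no library was highest throughout both lists. P11 was highest in all 8 microglial genes and in 2 of the 6 vascular genes, and highest for 43.0% of the table. P12 was lowest in 7 of the 8 microglial and 3 of the 6 vascular genes, and lowest for 33.7% of the table. Nothing is read from the vascular counts of P11 and P12, which rest on 6 genes. *Opalin*, the only gene of the oligodendrocyte list of 12 in the table, was between 15.5 and 19.0 RPKM for the young group, between 10.9 and 13.2 for the aged controls and between 12.1 and 19.2 after repopulation. The 2 astrocyte genes of 17 summed to between 422 and 440, 473 and 509, and 467 and 504 RPKM in the same groups, and the 3 neuronal genes of 14 to between 282 and 298, 293 and 314, and 289 and 294. The neuronal sum joins genes that went opposite ways. With age limma called 2 of the 3 higher and 1 lower, where 46.3% of the table was called higher and 16.5% lower. With repopulation 1 was called lower, where 5.81% of the table was. Of the 10 choroid plexus, 10 fibroblast and meninges, and 11 blood and lymphocyte genes listed, 0 are in the table. The part of these cells, or of P01, in the levels of *Slco1a4* and *Itm2a* was not tested.

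The likeness of patterns was taken as Pearson's r of log2(RPKM + 1) over the 9 libraries, which share the 3 group differences, and is given as a description. The 2 endothelial genes were not close to each other, with an r of 0.33. *Itm2a* was 108th of 688 genes in likeness to *Slco1a4*, and *Slco1a4* was 165th in likeness to *Itm2a*. With the group means removed their r was 0.42. Among the aged-repopulated libraries both genes were highest in P01 and lowest in P03, whereas among the aged controls *Itm2a* was lowest in P12 and *Slco1a4* in P11.

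The 5 genes most like *Slco1a4* were *Arl4a* (r = 0.91), a small GTPase of the ARF family, *Erlec1* (0.89), a lectin of the endoplasmic reticulum, *Prmt8* (0.87), a brain arginine methyltransferase, *Ccng2* (0.86), a cyclin-like protein, and *Ciart* (0.84), a repressor of the circadian clock. Each was lowest in the aged-repopulated brains. The mean of *Prmt8* was 21.5 ± 0.957 RPKM (SD, n = 3) for the young group, 21.4 ± 0.515 (SD, n = 3) for the aged controls and 19.2 ± 0.474 (SD, n = 3) after repopulation. With the group means removed, the r of these 5 genes with *Slco1a4* lay between 0.06 and 0.56.

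The 5 genes most like *Itm2a* were *Serinc5* (r = 0.94), a membrane protein of the serine incorporator family, *Nek1* (0.94), a kinase linked to cilia, *Tfrc* (0.93), *Acss2* (0.92), which makes acetyl-CoA from acetate, and *Adam23* (0.91), a cell-surface protein of neurons. Each was highest in young controls and lowest in aged controls. *Serinc5*, for example, averaged 17.1 ± 0.649 RPKM (SD, n = 3) for the young group, 14.7 ± 1.08 (SD, n = 3) for the aged controls and 15.7 ± 0.599 (SD, n = 3) after repopulation. With the group means removed, the r of these 5 genes with *Itm2a* lay between 0.71 and 0.88. These values are partly fixed by the choice of the genes, since the spread within groups is part of the 9 libraries, and 0 of the 5 remained among the nearest 5 with group means removed. *Tfrc* was thus both a member of the endothelial list and the third in likeness to *Itm2a*, and its r with *Slco1a4* was 0.48.

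The differences of *Slco1a4* and *Itm2a* were recomputed with other scalings, pseudocounts and samples. The settings share the libraries on which the genes were chosen, so they show how far the size of a difference moves and are no further evidence of its direction. The age difference of *Itm2a* ranged from -0.58 to -0.35 over 17 alternatives. The repopulation difference of *Slco1a4* ranged from -0.44 to -0.24 over 16. The age difference of *Slco1a4* was below 0 in 13 of 16 alternatives and reached -0.13 when each library was centred on the median of the table.

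**Figure D5:**
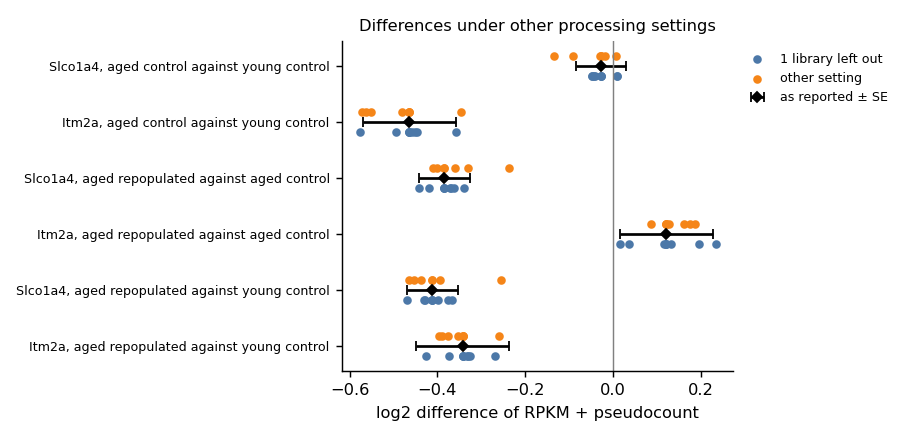
Log2 difference of RPKM plus the pseudocount (horizontal axis) of *Slco1a4* and *Itm2a* in the 3 contrasts as reported, with its standard error (black), with 1 library left out (blue) and under each other setting (orange). The age difference of *Itm2a* stays between -0.58 and -0.35 and the repopulation difference of *Slco1a4* between -0.44 and -0.24.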

How the data were processed

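RNA-seq of frozen hemibrains was analysed from 9 mice, 3 in each of the groups. Per the labels and the methods, the authors used Casava 1.8.2 and aligned reads to mm10 with ELAND. Their deposited values are RPKM for the 689 genes that passed their minimum of 10 RPKM and that their model had called, and each has at least 1 of the 9 libraries above that minimum. The authors' model also supplied F and t scores and p-values in the table, which were not used. How reads shared between genes were counted is not given in the sources used here. All 9 library columns were mapped, and 0 were left out.

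Read depth is unknown. A search of 346 genes under 20 RPKM for steps of whole reads gave a best mean cosine of 0.140 to 0.167 per library, where perfect steps give 1. The search used GENCODE M21 transcript lengths. The lengths behind the authors' RPKM are not given in the sources used here, so the search could not settle the depth. Precision was judged from the spread of the 3 mice per group.

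Log2(RPKM + 1) was fitted with limma 3.58.1 (R 4.3.3) with all 9 libraries and 3 groups, and p-values were adjusted over 689 genes (Benjamini-Hochberg, threshold 0.05). Since these genes had been selected on the same animals, the adjusted p-values do not control false discoveries over all expressed genes. The code was tested on simulated data. The named genes are the pair, the genes of the vascular lists, and the 5 nearest in likeness to each of the pair. From each other list at most 3 genes with the highest mean were to be named. *Laptm5* of the microglial list is not among those and was named besides, because the authors' minimum bears on its call. Genes and lists were chosen with earlier results of these data known. Alternatives were a pseudocount of 0.1 or 10, centring on the library median, quantile normalization, a loess correction for transcript length (span 0.75, GENCODE M21, 686 genes matched), a minimum mean of 20 RPKM (341 genes), only the groups compared, no variance moderation, and each library left out. Figures were made with Python 3.11.15 and matplotlib 3.10.9.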

Additional observations from a re-analysis of the deposited data

How the results depend on the processing

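For *Slco1a4*, the difference with age was -0.13 with libraries centred on the median, and was from -0.05 to 0.01 with each library left out. Its difference with repopulation was -0.24 and against young controls -0.26 with a pseudocount of 10, which compresses the scale. *Slco1a4* was under the minimum mean of 20 RPKM and has no value there. Without variance moderation *Slco1a4* was called in neither contrast. The number of the 5 endothelial genes called with age was 2 with the minimum of 20 RPKM, at which fewer genes remained. With repopulation it was 0 with that minimum and 0 without moderation, and from 0 to 3 with a library left out, 3 without P01 and 0 without P03 or P12. The 3 include *Ly6c1*, which without P01 passes the authors' minimum in aged controls alone. Against young controls it was 1 with the minimum and 0 without moderation, and from 1 to 3 with a library left out, 1 without P03, P07, P08 or P09. Of the 5 genes nearest to *Slco1a4*, 3 stayed with Spearman's rho and 0 with group means removed. For *Itm2a* these were 2 and 0. The cause was not tested. No paired analysis was possible because the labels name each mouse by a number of its own, and the replicate numbers used for leaving out libraries were given in accession order and only name samples.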

Other observations

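With each group's mean removed, the 5 genes nearest to each of the pair shared 0 genes with the 5 nearest over all 9 libraries. *Nebl* (r = 0.97), which encodes the actin-binding protein nebulette, and *Ly6a* (0.90) were nearest to *Slco1a4*, and over the 9 libraries with group means kept the same genes had an r of -0.30 and 0.09. *Xrn2*, the third nearest (0.89), kept an r of 0.80. *Lgals3bp* (0.93), the Hedgehog receptor gene *Ptch1* (0.92) and the MHC class I genes *H2-K1* and *H2-D1* (0.92 each) were nearest to *Itm2a*. With group means kept, *Lgals3bp*, *H2-K1* and *H2-D1* had an r of -0.44, -0.49 and -0.45 with *Itm2a*, whereas *Ptch1* kept an r of 0.84 and *Exoc1*, the fifth nearest (0.91), one of 0.74. *H2-K1* averaged 10.3 RPKM for the young group, 20.4 for the aged controls and 19.8 after repopulation. For *Lgals3bp*, *H2-K1* and *H2-D1*, but not for *Ptch1* or *Exoc1*, the aged groups had higher means than the young group. These are descriptions over 9 libraries in 3 groups, picked as the nearest of 688 genes after the values were seen.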
